A study of Mus musculus with 8 samples.

Results

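The adenosine system of the glomerulus was followed through 8 genes, namely the 4 adenosine receptor genes *Adora1*, *Adora2a*, *Adora2b* and *Adora3*, the ectoenzyme genes *Entpd1* and *Nt5e*, and *Ada* and *Adk*, whose products remove adenosine. They were chosen by gene symbol, which gave 13 of the 25697 probes on the array and 8 of its 18120 gene symbols. Illumina MouseRef-8 v1.1 BeadChips read glomerular RNA of males on the FVB/N background at 3 weeks of age, 4 of them Cd151+/+ and 4 Cd151-/-, with 1 mouse per array. The Cd151-/- mice carry a homozygous deletion of the tetraspanin gene *Cd151* that is not restricted to any cell type, the Cd151+/+ controls are of the same strain, and the labels name no treatment for either group. Glomeruli were purified on magnetic beads perfused through the heart, so each value is an average over all cells of the isolate, in which fewer cells of a type and less RNA per cell cannot be told apart. Of the 8 genes, only *Adora2b* had levels that did not overlap between the genotypes, being 1.37-fold lower in Cd151-/- glomeruli. Such groups arose for 2.31% of all probes tested, and none of the genes passed the test over all probes.

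Extracellular adenosine is made in steps from ATP that cells release. The ectoenzyme CD39, encoded by *Entpd1*, takes ATP and ADP to AMP, and CD73, encoded by *Nt5e*, takes AMP to adenosine. Adenosine then acts on G protein-coupled receptors, of which the A1 and A3 receptors lower cyclic AMP and the A2a and A2b receptors raise it, and in the kidney it is best known for constricting the afferent arteriole through the A1 receptor in tubuloglomerular feedback. Adenosine kinase (*Adk*) returns adenosine to AMP inside the cell, and adenosine deaminase (*Ada*) converts it to inosine.

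Levels are given as normalised log2 signal, after background correction and quantile normalisation of the deposited signals. A probe was called detected on an array when its detection p-value, that is, the proportion of negative controls on the array reaching its brightness, was 0.05 or lower. All 3 probes for *Cd151* itself were detected in 4 of 4 Cd151+/+ mice and in 0 of 4 lacking the gene. Between 11291 and 12359 probes were detected per array. The background signal was 59.0 to 69.5 for mice 1 and 2 of the Cd151+/+ group together with mice 3 and 4 of the Cd151-/- group, the lower-background arrays, and 123 to 135 for the remaining 4, the higher-background arrays. Both sets hold 2 mice of each genotype, and the difference within each set is given beside the results. The labels and columns name no slide, so what separates the sets is not known. The podocyte genes *Podxl*, *Wt1* and *Ptpro* were detected on all 8 arrays, as the tissue label implies, while *Cd2ap* and *Magi2* were detected on none. The tubular genes *Slc34a1*, of the proximal tubule, and *Umod*, of the thick ascending limb, were also detected on all 8 arrays. They were bright, with mean log2 signals of 14.02 and 14.31 in Cd151+/+ and 14.49 and 13.77 in Cd151-/- mice. The values therefore include RNA of tubule cells as well as of glomeruli. Each array is a separate animal, and precision is set by there being 4 per genotype.

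Of the 13 probes, 6 were detected on all 8 arrays and 3 on none. The undetected probes were the single probes for *Adora3* and *Entpd1* and 1 of the 2 probes for *Ada*. The remaining 10 probes, of 6 genes, had been detected on at least 1 array and were tested together with all 14967 such probes. With Benjamini-Hochberg adjustment over these, limma called 0 of the 10 probes at an adjusted p of 0.05, where it called 0.0334% of all probes tested. At an unadjusted p of 0.05 it called 1 of the 10, a dimmer probe for *Nt5e*, where it called 4.30% of all probes. That probe was higher in Cd151-/- mice, and 0 of the 10 were past the threshold and lower. Of all probes tested, 1.69% were past it and higher and 2.61% past it and lower. Taking the probe with the highest mean for each gene, 0 of the 6 genes passed the unadjusted threshold, where 4.37% of all genes did. SAM, the permutation method of the study, called 0 of the 10 probes at a false discovery rate of 0.2, where it called 91 of all 14967 probes (0.608%). Across the 6 genes the difference was positive for 3 and negative for 3 (among them *Adora2a*, undetected in Cd151-/- mice), with a median of 0.0032 on the log2 scale, against −0.0073 over all probes tested.

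**Figure D1:**
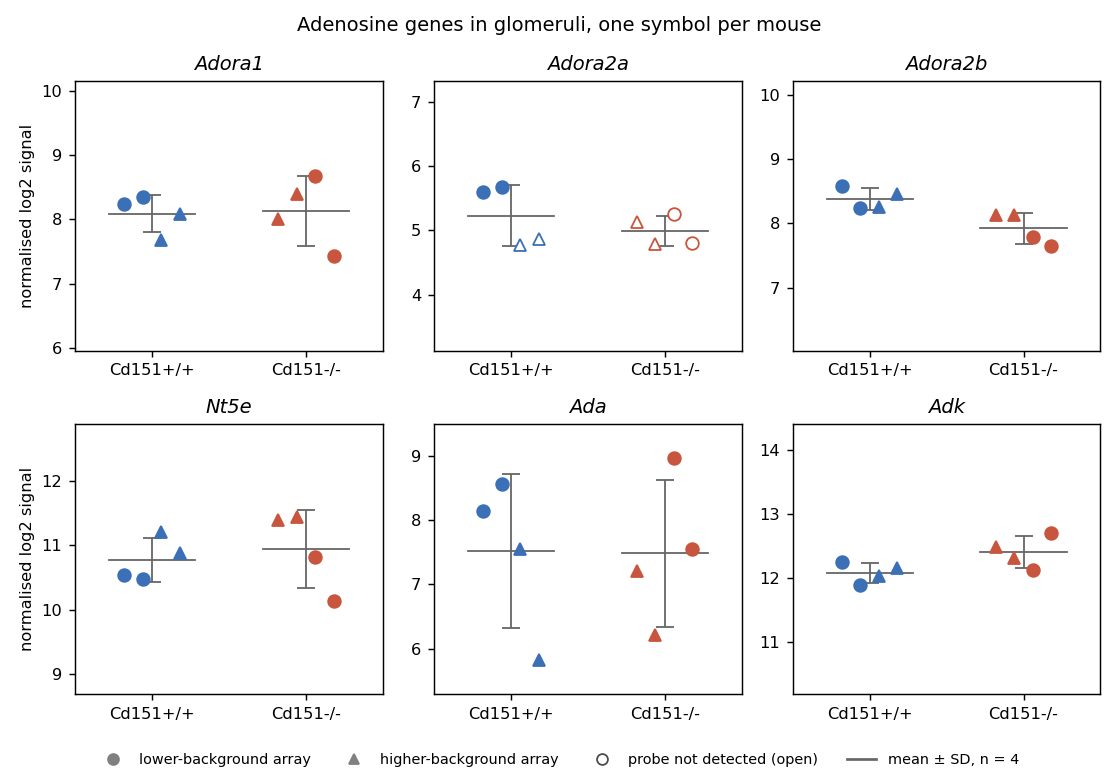
Normalised log2 signal of the 6 detected adenosine genes at their brightest probe, with 1 symbol per mouse, circles for lower-background and triangles for higher-background arrays, open symbols where the probe was not detected, and bars for the mean ± SD of 4 mice. Every panel spans the same log2 range, and *Adora2b* is the panel in which every Cd151-/- mouse lies below every Cd151+/+ mouse.

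*Adora2b* encodes the A2b receptor, a low-affinity receptor coupled to adenylyl cyclase activation, and was read by probe ILMN_1244424, detected in every mouse. The normalised log2 signal was 8.58, 8.23, 8.26 and 8.46 in Cd151+/+ mice 1 to 4 and 8.12, 8.14, 7.79 and 7.65 in Cd151-/- mice 1 to 4. The highest Cd151-/- mouse was thus below the lowest Cd151+/+ mouse, by a gap smaller than the spread within either genotype. The means were 8.38 ± 0.17 (SD, n = 4) and 7.92 ± 0.24 (n = 4), a log2 fold change of −0.46 (standard error 0.21, 95% interval −0.92 to 0.01). Groups that did not overlap give the smallest p that 4 mice against 4 allow (two-sided exact permutation test, p = 0.0286), and 2.31% of all probes tested had such groups, 1.46% with Cd151-/- lower. In limma the unadjusted p was 0.0525 and the adjusted p 0.918, so *Adora2b* did not pass over all probes. Over the alternative settings the unadjusted p ran from 0.0144 to 0.141 and the adjusted p from 0.211 to 1.00, with the direction kept in all of them. *Adora2b* is among the genes that the study itself singled out on these same mice, so its direction here is not independent evidence.

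The deposited signals of the *Adora2b* probe, before any correction, were 221, 173, 433 and 672 in Cd151+/+ mice 1 to 4 and 603, 597, 158 and 159 in Cd151-/- mice 1 to 4. On this scale the set of arrays outweighed the genotype, the 4 higher-background arrays lying at 433 to 672 and the 4 lower-background arrays at 158 to 221. After normalisation the sets differed by 0.18 on the log2 scale (adjusted p = 0.461, limma), less than the genotypes did. The genotype difference was −0.69 on the lower-background arrays and −0.23 on the higher-background arrays, both negative, from 2 mice of each genotype per set. When the array set entered limma as a block, the standard error was 0.17, the unadjusted p 0.0255 and the adjusted p 0.408, and 0 of the 10 adenosine probes passed adjustment, where 0.0535% of all probes did.

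*Adora1*, the receptor gene of tubuloglomerular feedback, was detected in every mouse at probe ILMN_1254016. Its normalised log2 signal was 8.24, 8.35, 7.68 and 8.08 in Cd151+/+ and 8.01, 8.40, 8.68 and 7.43 in Cd151-/- mice 1 to 4. The Cd151-/- mice held both the highest and the lowest value and enclosed the whole Cd151+/+ range. The means of 8.09 ± 0.29 and 8.13 ± 0.54 (SD, n = 4 each) differed by 0.04 (standard error 0.29, 95% interval −0.60 to 0.68, adjusted p = 0.988, limma). The sign of this difference turned with the set, being −0.24 on the lower-background and 0.32 on the higher-background arrays. Probe ILMN_3143358 for the same gene was detected on the 4 higher-background arrays and on no other, at 5.86 to 6.07, while the lower-background arrays lay at 4.99 to 5.11. Its genotype difference was −0.04 (95% interval −0.78 to 0.70). Probe ILMN_3065420 was detected in Cd151+/+ mouse 3 alone, at 5.53, and likewise gives no fold.

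*Adora2a* encodes the A2a receptor, known for relaxing vessels and restraining leukocytes. Its probe was near the detection limit, being detected in Cd151+/+ mice 1 and 2 at 5.60 and 5.68 and in no other mouse. Cd151+/+ mice 3 and 4 were at 4.77 and 4.87, and Cd151-/- mice 1 to 4 at 5.13, 4.79, 5.25 and 4.80, so that the genotypes overlapped. Limma did not call the probe (adjusted p = 0.918). Since no Cd151-/- array detected the probe, its level there has only an upper bound, and that bound was no lower than the Cd151+/+ mean, so that no fold is given. Both mice with detection were on lower-background arrays.

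*Adora3*, whose A3 receptor is best known from mast cells, was not detected on any array. Its signal was 4.51 to 4.84 in Cd151+/+ and 4.68 to 4.75 in Cd151-/- mice, and its lowest detection p-value was 0.318. Of the receptor genes 3 were therefore at or above the detection limit in at least some mice, and *Adora1* and *Adora2b* were the 2 detected in all.

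The first ectoenzyme gene of the pathway, *Entpd1*, was likewise not detected on any array, at 4.48 to 5.01 in Cd151+/+ and 4.44 to 4.78 in Cd151-/- mice, with a lowest detection p-value of 0.185. The single probe on this array gives no second reading of the gene, so its level cannot be stated beyond being not above background.

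*Nt5e*, encoding the enzyme that makes adenosine, was bright at probe ILMN_2813830 and detected in every mouse. The normalised log2 signal was 10.54, 10.47, 11.21 and 10.88 in Cd151+/+ and 11.40, 11.44, 10.83 and 10.14 in Cd151-/- mice 1 to 4. The 2 highest and the lowest value were all from Cd151-/- mice, and the genotypes overlapped. The means were 10.78 ± 0.34 and 10.95 ± 0.61 (SD, n = 4 each), and the log2 fold change was 0.17 (standard error 0.32, 95% interval −0.52 to 0.87, adjusted p = 0.934, limma). The difference was −0.02 on the lower-background and 0.37 on the higher-background arrays, and it ranged from 0.012 without Cd151-/- mouse 2 to 0.44 without Cd151-/- mouse 4.

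The second *Nt5e* probe, ILMN_2636285, was dim, and 3 of 4 Cd151+/+ mice detected it against 4 of 4 with the deletion. It read 5.46, 5.96, 6.17 and 6.19 in Cd151+/+ and 6.75, 7.35, 6.31 and 6.15 in Cd151-/- mice 1 to 4. Cd151-/- mouse 4 lay among the Cd151+/+ mice and the other 3 lay above them. The log2 fold change was 0.70 (standard error 0.30, 95% interval 0.04 to 1.35), with an unadjusted p of 0.0384 and an adjusted p of 0.918 in limma and p = 0.0857 in the two-sided exact permutation test. It was 0.52 on the lower-background and 0.87 on the higher-background arrays. The brighter probe for the gene differed by less and had an interval that included 0, so the larger difference was read by 1 probe of 2. The difference between the probes was not tested. Without Cd151-/- mouse 2 the dim probe differed by 0.44 (unadjusted p = 0.127, limma), and it also missed the unadjusted threshold without Cd151+/+ mouse 1 or 2 or Cd151-/- mouse 1. The same held without normexp background correction, with scaling to the 75th percentile, with the mouse number as a block, with trended and robust variance and with the equal-variance test.

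**Figure D2:**
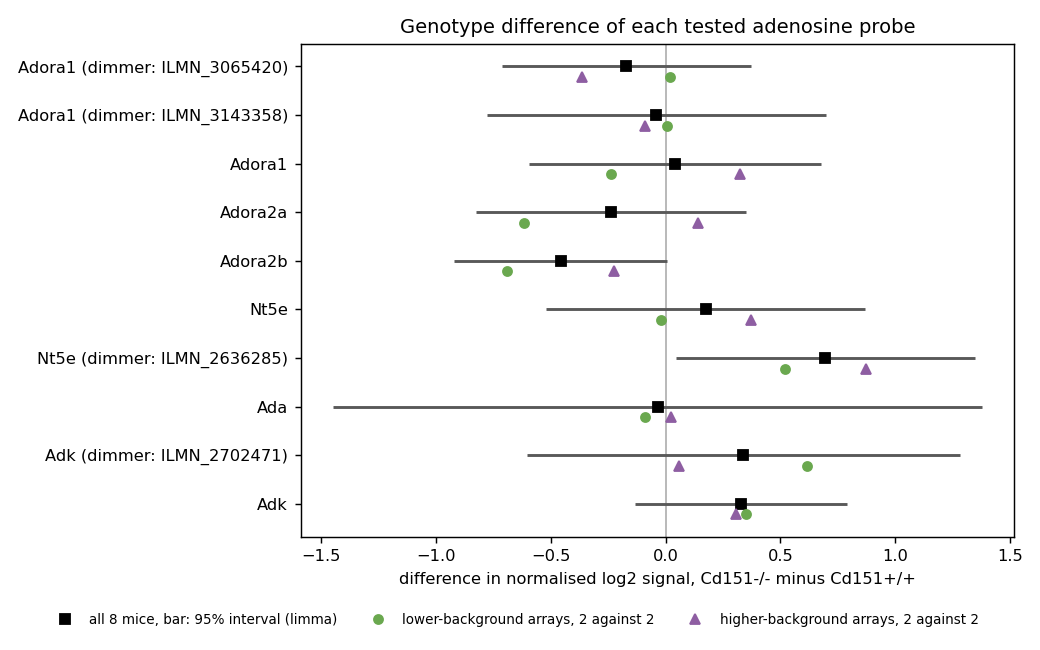
Cd151-/- minus Cd151+/+ difference in normalised log2 signal for the 10 tested adenosine probes, as squares with 95% intervals from limma, with the difference within the lower-background (circles) and higher-background arrays (triangles) below each. *Adora2a* and *Adora1* probe ILMN_3065420 were undetected in every Cd151-/- mouse, so that their squares compare signal with background. Only the interval of the dimmer *Nt5e* probe lies wholly on one side of 0, and that of *Adora2b* reaches from −0.92 to 0.01.

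*Adk* encodes the enzyme that sets the cell's own adenosine level and was detected in every mouse by both of its probes. The brighter, ILMN_2986899, read 12.25, 11.89, 12.03 and 12.15 in Cd151+/+ and 12.48, 12.31, 12.13 and 12.71 in Cd151-/- mice 1 to 4. Of the Cd151-/- mice 3 exceeded the whole Cd151+/+ range, and mouse 3 lay within it. The means of 12.08 ± 0.16 and 12.41 ± 0.25 (SD, n = 4 each) differed by 0.33 (standard error 0.21, 95% interval −0.13 to 0.79, adjusted p = 0.918, limma; two-sided exact permutation test, p = 0.0857). Both sets of arrays gave nearly the same difference, 0.35 for the lower-background and 0.31 for the higher-background arrays.

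The second *Adk* probe, ILMN_2702471, differed by 0.34 between the genotypes with a wider interval (−0.60 to 1.28). It ranged from 0.068 without Cd151+/+ mouse 1 to 0.60 without Cd151+/+ mouse 4 or Cd151-/- mouse 3, and was 1.05 with array weights. It read 8.06 and 8.22 in Cd151+/+ mice 1 and 2 and 8.43 and 9.09 in Cd151-/- mice 3 and 4, and 9.57, 9.65, 9.86 and 9.47 on the 4 higher-background arrays. All higher-background arrays were thus above all lower-background arrays, whichever the genotype.

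*Ada* was detected in every mouse by probe ILMN_2686132, at 8.14, 8.56, 7.55 and 5.82 in Cd151+/+ and 7.21, 6.20, 8.97 and 7.55 in Cd151-/- mice 1 to 4. The spread within each genotype was the widest of the 6 genes, with means of 7.52 ± 1.20 and 7.48 ± 1.14 (SD, n = 4 each). The log2 fold change was −0.03 (standard error 0.64, 95% interval −1.45 to 1.38, adjusted p = 0.995, limma), an interval that leaves room for differences of over 2-fold in either direction. The other probe, ILMN_1228696, was at 4.46 to 4.61 in all mice and was not detected.

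The set of arrays moved several of these probes more than the genotype did. In a limma model with both terms, 5 of the 10 adenosine probes passed an adjusted p of 0.05 for the set, where 23.9% of all probes did. *Ada* was lower by 1.61 on the higher-background arrays (standard error 0.42, adjusted p = 0.0239). The second *Adk* probe was higher there by 1.19 (adjusted p = 0.00497), the *Adora1* probe ILMN_3143358 by 0.92 (adjusted p = 0.00348), and the *Nt5e* probes by 0.74 (adjusted p = 0.0257) and 0.64 (adjusted p = 0.0416). The brighter *Adk* probe differed by 0.00 between the sets and the brightest *Adora1* probe by −0.13. Probes of 1 gene therefore differed in how they followed the set, for both *Adk* and *Adora1*. The genotypes are balanced over the sets, and with the set as a block 11.3% of all probes passed an unadjusted p of 0.05, against 4.30% without it.

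**Figure D3:**
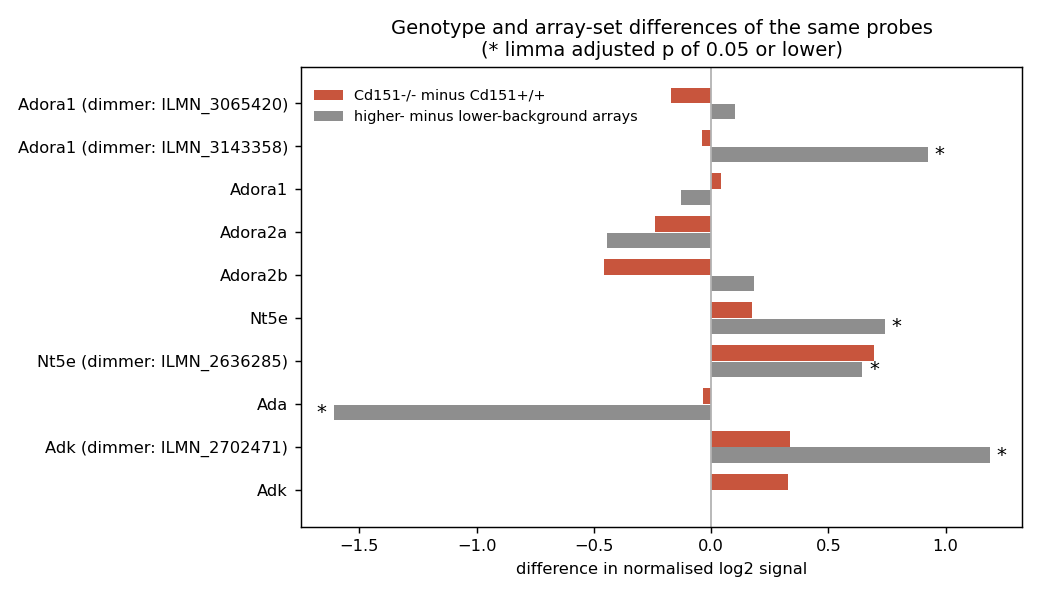
Genotype difference (Cd151-/- minus Cd151+/+) beside the difference between higher- and lower-background arrays for each tested adenosine probe, both in normalised log2 signal, with stars where limma gave an adjusted p of 0.05 or lower. For example, the genotype bar is longer than the array-set bar for *Adora2b* (−0.46 against 0.18), the brighter *Adk* probe (0.33 against 0.00) and, by little, the dimmer *Nt5e* probe (0.70 against 0.64), and shorter for *Ada* (−0.03 against −1.61).

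Genes with a pattern over the 8 mice most like that of *Adora2b* were sought among the 9494 probes of other genes detected on all arrays. They were *Prkg2*, a cyclic GMP-dependent protein kinase (Pearson r = 0.98, Spearman rho = 0.86), *Krt7*, a keratin of simple epithelia (0.97 and 0.93), and *2310042D19Rik* (0.95 and 0.93). Without the 2 mice farthest from the *Adora2b* median, Cd151-/- mice 3 and 4, r was 0.92, 0.95 and 0.95. The closest gene to *Nt5e* was *Arpc1b* (r = 0.99, rho = 0.98), that to *Ada* was *Mlkl* (0.98 and 0.98), that to *Adk* was *Mpv17l* (0.96 and 0.93) and that to *Adora1* was *S100a11* (0.93 and 0.98). These are the highest of many correlations over 8 mice that share 2 sets of arrays, and are given as a description only.

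The wider pathway was described through 6 lists with 86 genes, of which 81 had a probe and 58 a detected one. Each gene was read at its brightest detected probe alone. Further probes, such as the other probe of *Acpp* and of *P2rx1*, are not reported. In limma 2 of the 58 were higher and 1 lower in Cd151-/- glomeruli at an unadjusted p of 0.05, where 1.90% of all genes were higher and 2.47% lower. None of the 58 passed Benjamini-Hochberg adjustment over all probes, and their median log2 fold change was 0.01.

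Among the ectonucleotidases and related enzymes, not all of them at the cell surface, 8 of 12 genes were tested, 6 with a positive and 2 with a negative difference, and the median was 0.35. *Acpp*, an acid phosphatase that can also split AMP at the cell surface, read 9.36, 9.86, 9.63 and 9.55 in Cd151+/+ and 10.33, 10.47, 10.20 and 10.10 in Cd151-/- mice 1 to 4. The lowest Cd151-/- value exceeded the highest Cd151+/+ value. Of the 58 tested pathway genes 1, *Acpp*, had genotypes that did not overlap, where 2.31% of all probes tested did not, 0.855% with Cd151-/- higher. *Acpp* differed by 0.67 on the log2 scale (standard error 0.20, unadjusted p = 0.00731, adjusted p = 0.918, limma), and over the alternative settings its unadjusted p was at most 0.0306. *Entpd2*, which like CD39 splits extracellular ATP, differed by 0.50 (adjusted p = 0.918, limma), with Cd151-/- mouse 4 at 9.48 and the other 7 mice at 6.70 to 7.88. Without that mouse the difference was −0.04.

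Of the nucleoside transporters and genes of ATP release, 7 of 10 were tested, with 3 positive and 4 negative differences. *Slc17a9*, the vesicular nucleotide transporter that loads ATP for release, listed on the array as *1700019H03Rik*, had means of 7.39 in Cd151+/+ and 6.59 in Cd151-/- mice. It differed by −0.79 on the log2 scale (standard error 0.31, unadjusted p = 0.0288, adjusted p = 0.918, limma), with Cd151+/+ mouse 3, at 6.49, inside the Cd151-/- range of 6.35 to 6.84. It missed the unadjusted threshold without Cd151+/+ mouse 1 or 2 and without Cd151-/- mouse 1 or 4. The same held with the mouse number as a block and with the equal-variance test. *Slc28a1*, a sodium-coupled nucleoside transporter of epithelia, differed by 1.00 (standard error 0.59, adjusted p = 0.918, limma), by 0.62 without Cd151-/- mouse 4 and by 1.59 without Cd151-/- mouse 3. Its probe was detected in 1 Cd151+/+ mouse and in 3 with the deletion.

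The enzymes that handle adenosine and purines inside the cell gave 15 tested genes of 20, with 11 positive and 4 negative differences, a median of 0.13 and no gene past an unadjusted p of 0.05 in limma. *Xdh*, which makes uric acid, differed by −0.48 (standard error 0.53), by −0.11 without Cd151+/+ mouse 1 and by −1.33 with array weights. *Xdh* was at 7.22 to 8.20 on the lower-background and 5.69 to 6.22 on the higher-background arrays.

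The G proteins, adenylyl cyclases and subunits of protein kinase A, through which the receptors signal, gave 14 tested genes of 22, of which 11 had a negative and 3 a positive difference, with a median of −0.22. None passed an unadjusted p of 0.05 in limma. *Adcy6*, an adenylyl cyclase, was at 11.81, 11.93, 11.14 and 11.20 in Cd151+/+ and 10.46, 10.72, 11.80 and 10.60 in Cd151-/- mice 1 to 4, a difference of −0.62 (standard error 0.33, adjusted p = 0.918, limma). The 3 lowest values of all were from Cd151-/- mice, while mouse 3 of that genotype lay within the Cd151+/+ range. *Gnai2*, an inhibitory G protein subunit, differed by −0.55 (standard error 0.32), and by −0.26 without Cd151-/- mouse 4, the lowest at 10.28.

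Of the P2 receptors, which answer to ATP and other nucleotides rather than to adenosine, 8 of 14 were tested, 3 positive and 5 negative. *P2rx1*, an ATP-gated channel of smooth muscle, had means of 10.09 ± 0.72 in Cd151+/+ and 10.92 ± 0.28 in Cd151-/- mice (SD, n = 4 each). It differed by 0.83 on the log2 scale (standard error 0.34, unadjusted p = 0.0315, adjusted p = 0.918, limma). Cd151+/+ mouse 4, at 9.07, was the lowest, and without it the difference was 0.50 (unadjusted p = 0.0780, limma). It also missed the unadjusted threshold without Cd151-/- mouse 2 or 3 and with the equal-variance test. *P2rx7* differed by −0.29 (standard error 0.28) and was detected in 1 mouse of each genotype. Without the Cd151+/+ mouse in which it was detected, mouse 3, the difference was −0.057.

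The study counted *Adora2b* among axon guidance genes, and the A2b receptor has been proposed as a partner of netrin receptors. Netrin 1 and its receptors were therefore read as well, with 6 of 8 genes tested and none past an unadjusted p of 0.05 in limma. *Ntn1* was detected in 1 Cd151-/- mouse alone. The receptor genes *Unc5b* and *Unc5c* differed by −0.27 (standard error 0.34) and −0.33 (standard error 0.39). With 1 mouse left out *Unc5c* ranged from −0.69, without Cd151-/- mouse 3, to −0.077, without Cd151-/- mouse 1.

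**Figure D4:**
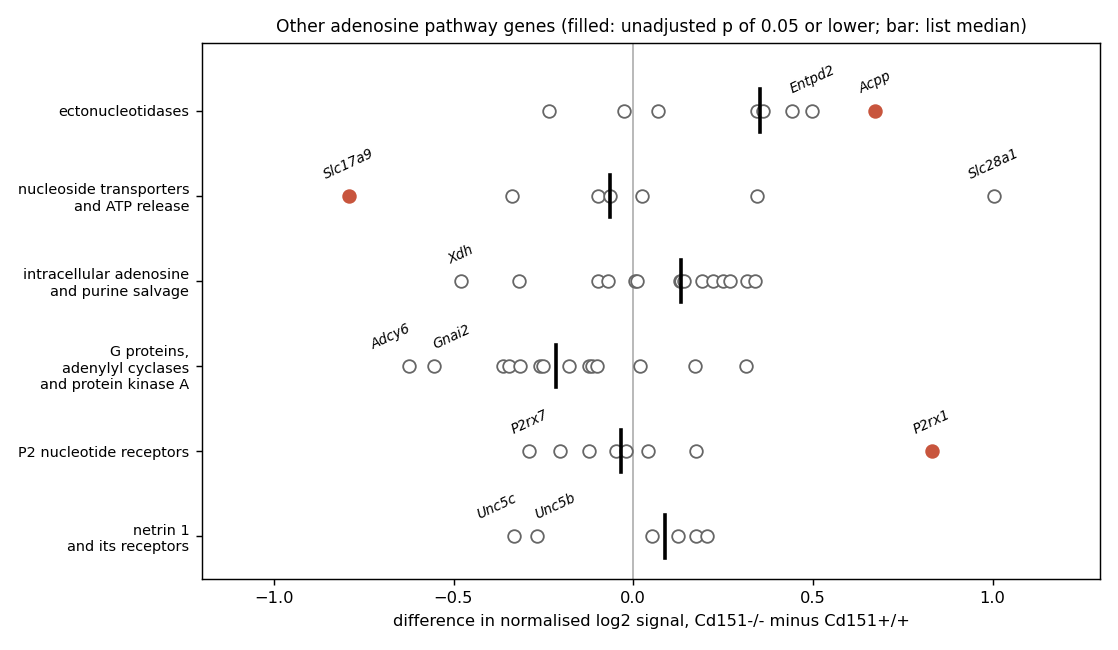
Cd151-/- minus Cd151+/+ difference in normalised log2 signal of the 58 tested genes of the 6 pathway lists, 1 circle per gene, with the list median as a bar and filled circles for genes at an unadjusted limma p of 0.05 or lower. The filled genes are *Acpp* (0.67), *P2rx1* (0.83) and *Slc17a9* (−0.79).

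Markers of the cell types in the isolate also varied between mice. Their summed level is the sum of the normalised signals of a list on a linear scale. All 6 tested proximal tubule genes of 8 listed had a positive difference (median 0.55), among them *Lrp2*, undetected in Cd151+/+ mice. None passed an unadjusted p of 0.05 in limma, and the summed level was 19794 to 56514 in Cd151+/+ and 40080 to 70500 in Cd151-/- mice. The lowest sums were those of Cd151+/+ mice 1 and 2 and the highest that of Cd151-/- mouse 4. Of 8 glomerular endothelial genes 7 had a negative difference (median −0.39), among them *Kdr*, undetected in Cd151-/- mice. The endothelial sums were 34897 to 44405 in Cd151+/+ and 22854 to 44209 in Cd151-/- mice, the lowest being that of Cd151-/- mouse 4. The 4 tested podocyte genes of 8 all had a negative difference (median −0.25), with sums of 56806 to 61126 and 46657 to 62030.

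Of the erythroid genes 6 of 7 were tested, all 6 negative. Among these, 3 passed an unadjusted p of 0.05 in limma (*Alas2*, *Hba-a1* and *Ahsp*, named after their values were seen), where 2.47% of all genes were lower. *Hbb-b1* (−0.02) and *Hbb-b2* (−0.10) were near background, detected in 0 and 2 Cd151+/+ mice and in 1 Cd151-/- mouse each. The summed level was 38351 to 50337 in Cd151+/+ and 18016 to 37600 in Cd151-/- mice. These sums did not overlap between the genotypes, though each of the 6 tested genes did when taken alone. How often sums over other such lists of genes do not overlap was not tested. Most of each sum was *Hba-a1*, with a mean log2 signal of 15.41 in Cd151+/+ and 14.72 in Cd151-/- mice. Mesangial and smooth muscle genes gave 6 tested of 8, with 2 positive and 4 negative differences, of which *Acta2* (0.71) and *Pdgfrb* (−0.74) passed an unadjusted p of 0.05 in limma, and sums of 5387 to 6791 and 4084 to 8408. Distal tubule and collecting duct genes gave 6 of 8, with 2 positive and 4 negative, and sums of 22173 to 44197 and 15149 to 28516.

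Leukocyte genes had summed levels of 1273 to 1716 on the lower-background and 2175 to 3629 on the higher-background arrays, and of their 9 listed genes *Ptprc*, *Emr1* and *Itgam*, which define leukocytes and macrophages, were detected on no array, while *Cd68*, *Cd52*, *Lyz* and *Cd3e* were detected on all 8. Between the genotypes the leukocyte sums were 1273 to 3288 in Cd151+/+ and 1536 to 3629 in Cd151-/- mice, with 3 positive and 3 negative differences among 6 tested genes. The part of these cell types in the levels of *Adora2b*, *Nt5e*, *Adk* and *Acpp* was not tested.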

How the data were processed

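RNA from 8 glomerular isolates was amplified, biotin-labelled and scanned by the authors, who deposited 1 table exported from GenomeStudio (per the labels, version not given in the sources used here). It holds, for each probe and array, a signal intensity deposited by the authors without normalisation, which the values show had kept its background, and a detection p-value, deposited in steps of 1 over 798 negative controls. The values in the study were further normalised by cubic spline. Signals are means over the beads of a probe.

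In R 4.3.3 with limma 3.58.1, backgrounds were inferred from the detection p-values and normexp correction was applied with an offset of 16. Arrays were then quantile-normalised on the linear scale and the values taken to log2. Probes detected (p-value up to 0.05) on 1 or more arrays were fitted by genotype (lmFit, eBayes) and adjusted by Benjamini-Hochberg over all of them. Exact permutation tests used all 70 relabelings of the mice and were two-sided. Fold bounds for probes undetected in 1 genotype used the lowest detected signal of each array. Of several probes for a gene, that with the highest mean was taken for lists, and listed genes were matched by symbol or by a synonym in a gene table of assembly GRCm38.p6. SAM was written out in R.

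All probes of the 8 genes are named. From each list, genes at an unadjusted p of 0.05 and the 2 with the largest absolute difference are named, and for likeness of pattern the 3 closest genes for *Adora2b* and the closest for each other gene detected on all arrays. The genes, lists, array sets and tests were chosen with earlier results of these data known. Alternatives were: no normexp, cubic spline through 15 quantiles, an offset of 50, scaling by the 75th percentile, omitting the detection filter or requiring detection in all 4 mice of a genotype, an intensity of at least 50, the mouse number or the array set as a block, trended and robust variance, array weights, an equal-variance test, SAM, other probes, and leaving out each mouse.

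Tested on simulated data for this comparison (14967 probes, 200 of them shifted by a log2 change of 2), limma found 88.0% of the shifted probes with 3.30% of its calls unchanged probes, and SAM called 95.0% with 17.4%. That shift is larger than the difference of any adenosine probe, and the simulated noise held no array sets. Recovery of differences as small as those of the adenosine probes was not tested. Probe sequences were not used here, and a few genes that these rules would name are not reported here.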

Additional observations from a re-analysis of the deposited data

Results flagged for a closer look

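In Cd151-/- mice *P2rx7*, an ATP-gated channel, stood at 5.24 in mouse 2 and at 4.66, 4.66 and 4.70 in the other mice, on the normalised log2 scale, which sets mouse 2 apart from the rest of its group by Dixon's ratio (0.919). Mouse 2 was also the only Cd151-/- mouse in which the probe was detected. Of the 44 groups of 4 mice examined, for the tested adenosine probes and the named pathway genes, 1 stood out in this way, and chance alone flags about 5% of groups.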

How the results depend on the processing

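Under no setting tried did an adenosine gene pass the adjusted threshold in limma, the lowest adjusted p being 0.0885, for the dimmer *Nt5e* probe with array weights. *Adora2b*, *Nt5e* and *Adk* kept their direction in every alternative, and *Adora2b* ran from −0.53 to −0.34. The number of the 6 genes lower at an unadjusted p of 0.05, 0 as reported, became 1, *Adora2b* each time, without normexp, with cubic spline normalisation, with an offset of 50, with no detection filter, with detection on all 4 arrays of a genotype, with the array set as a block and with the equal-variance test, and it was 0 to 1 with 1 mouse left out, the 1 arising without Cd151-/- mouse 2. In those settings 4.12% to 5.39% of all probes passed the threshold, except with the array set as a block, where 11.3% did. The number higher became 1, *Nt5e*, with array weights, where 32.2% of all probes passed. *Adora1* turned to −0.075 with array weights and to −0.17 and −0.040 at its other probes, the first of which no Cd151-/- mouse detected, and was −0.14 to 0.27 with 1 mouse left out, negative without mouse 3 of the Cd151+/+ group (−0.09) or mice 2 (−0.05) or 3 (−0.14) of the Cd151-/- group. Its probe ILMN_3143358 turned to 0.46 with array weights and was −0.23 to 0.14 with 1 mouse left out. *Ada* was −0.60 to 0.38 with 1 mouse left out, positive without mice 1 (0.18) or 2 (0.32) of the Cd151+/+ group or mice 1 (0.05) or 2 (0.38) of the Cd151-/- group, and −0.80 with array weights. *Entpd2* turned to −0.078 with array weights and was −0.040 to 0.89 with 1 mouse left out, and *Unc5b* was −0.48 to 0.0035.

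The number of pathway genes higher at an unadjusted p of 0.05, 2 as reported, was 7 with array weights, 1 with the equal-variance test and 1 to 3 with 1 mouse left out. The number lower, 1 as reported, was 0 with the mouse number as a replicate block, 3 with the array set as a block, 8 with array weights, 0 with the equal-variance test and 0 to 3 with 1 mouse left out. Array weights brought 32.2% and the array set as a block 11.3% of all probes past that threshold, against 4.30% as reported. With 1 mouse left out 2.30% to 9.42% of all probes passed it. The cause of these shifts was not tested. The deviations of same-numbered mice from their group means had correlations of −0.58, −0.40, −0.53 and −0.01 for mice 1 to 4. Every such pair joins a lower-background with a higher-background array, so these values cannot show whether the numbers pair the mice. With the number as a replicate block in limma *Adora2b* had an unadjusted p of 0.107. With 4 mice per genotype on arrays in 2 background sets, differences such as that of *Ada*, with an interval of −1.45 to 1.38, are poorly resolved.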
